A study of Mus musculus with 6 samples.

Results

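The genes described here encode the nuclear pore complex and the receptors that carry cargo through it. They were taken from the deposited table by gene symbol: the numbered nucleoporins (Nup), the importins (Ipo, Kpna, Kpnb), the exportins (Xpo), the transportins (Tnpo), the Ran-binding protein genes (Ranbp), and Ran, Rangap1, Rcc1, Tpr, Ndc1, Pom121, Rae1 and Cse1l. The symbol rule itself uses no measured value, but the genes were chosen with earlier results of these data known. The rule gave 57 of the 13931 genes in the table, of which 25 are structural or peripheral nucleoporins and 32 are receptors, genes of the Ran cycle or other Ran-binding protein genes. Whole lenses were taken from mice at birth (postnatal day 0) for RNA-sequencing. There were 3 libraries from control mice (Control) and 3 from mice with Celf1 deleted in the lens (Celf1cKO), and 2 lenses were pooled for each library. Celf1 encodes an RNA-binding protein that acts on the decay, splicing and translation of its target mRNAs, and the comparison asks which transcripts differ in level when it is deficient. The Celf1cKO mice carried 1 germline knockout allele (Celf1lacZKI), 1 allele with loxP sites around exon 5 (Celf1flox) and the Pax6GFPCre transgene, which drives Cre in the lens lineage from the placode stage. By the labels, Control mice were Celf1lacZKI/+, so that the germline knockout allele would be present in both groups, whereas the methods of the study describe controls as Celf1flox without the Cre allele unless noted otherwise. Both groups were of mixed C57BL/6 and FVB background, and the controls are not described as carrying Cre.

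Nuclear pores are large channels through the nuclear envelope, built from rings of nucleoporins around a central channel lined with flexible repeats that soluble transport receptors can cross. Importins bind cargo in the cytoplasm and exportins bind it in the nucleus, and the small GTPase Ran sets the direction, because its exchange factor Rcc1 sits on chromatin while its activating protein Rangap1 is held at the cytoplasmic face of the pore. In the lens, epithelial cells divide and keep their nuclei, whereas fiber cells synthesise large amounts of crystallin and then break down the nucleus and its envelope as they mature.

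Between 40694454 and 44387151 reads per library were counted on genes, and levels are given as log2 CPM, the log2 of counts relative to library size after the authors' scaling. Celf1 itself (chromosome 2, positions 90940382 to 91019497) had 37948, 36436 and 25513 reads in the Control libraries and 20954, 9850 and 11239 in the Celf1cKO libraries, a log2 fold-change of -1.60 ± 0.33 (standard error) with an adjusted p of 0.0269 by limma. Celf1cKO library 1 thus kept the most Celf1 of its group. Lens fiber markers summed to 236544 CPM or more in every library. The genes listed as lens epithelium markers summed to 1239.7 CPM or more, of which Cdkn1c alone made up 50.6% or more. The other 7 summed to 249 CPM or more. Of 8 markers of cornea and skin epithelium only Krt4 was in the table, at 0 to 0.330 CPM. In whole lenses, fewer cells of a type and less RNA per cell cannot be told apart.

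Of the 57 genes, 56 had a mean level above 1 log2 CPM. Under the study's thresholds (adjusted p under 0.05, log2 fold-change beyond 0.58 and mean level above 1 log2 CPM), 5 were elevated in Celf1cKO lenses, namely Rangap1, Nup93, Ranbp6, Pom121 and Kpna2. This is 8.77% of the transport genes, where 4.69% of all genes in the table passed in that direction. Only Kpna3 was reduced under the same thresholds, 1.75% of the transport genes, where 2.56% of all genes passed. On the adjusted p alone, Ipo5, Xpot and Ndc1 joined the elevated genes and Ipo8 and Ipo9 the reduced ones, giving 8 elevated (14%, background 7.85%) and 3 reduced (5.26%, background 4.03%). The remaining 46 did not pass. At an unadjusted p under 0.05 there were 15 elevated (26.3%, background 16.3%) and 5 reduced (8.77%, background 13.7%).

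As a group the transport genes did not lie to one side. Their median log2 fold-change was -0.01, beside -0.04 over all genes and 0.01 over all genes with a mean level above 1 log2 CPM. Values lay above 0 for 28 genes and below 0 for 29. In 17 genes every Celf1cKO library lay above every Control library (29.8%, background 19.5%), and in 8 every Celf1cKO library lay below (14%, background 17.0%). The plot of log2 fold-changes by role shows that the 5 genes called elevated each belong to a different role: the Ran cycle, the inner ring, the membrane anchor of the pore, importin alpha and the importin beta family.

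**Figure D1:**
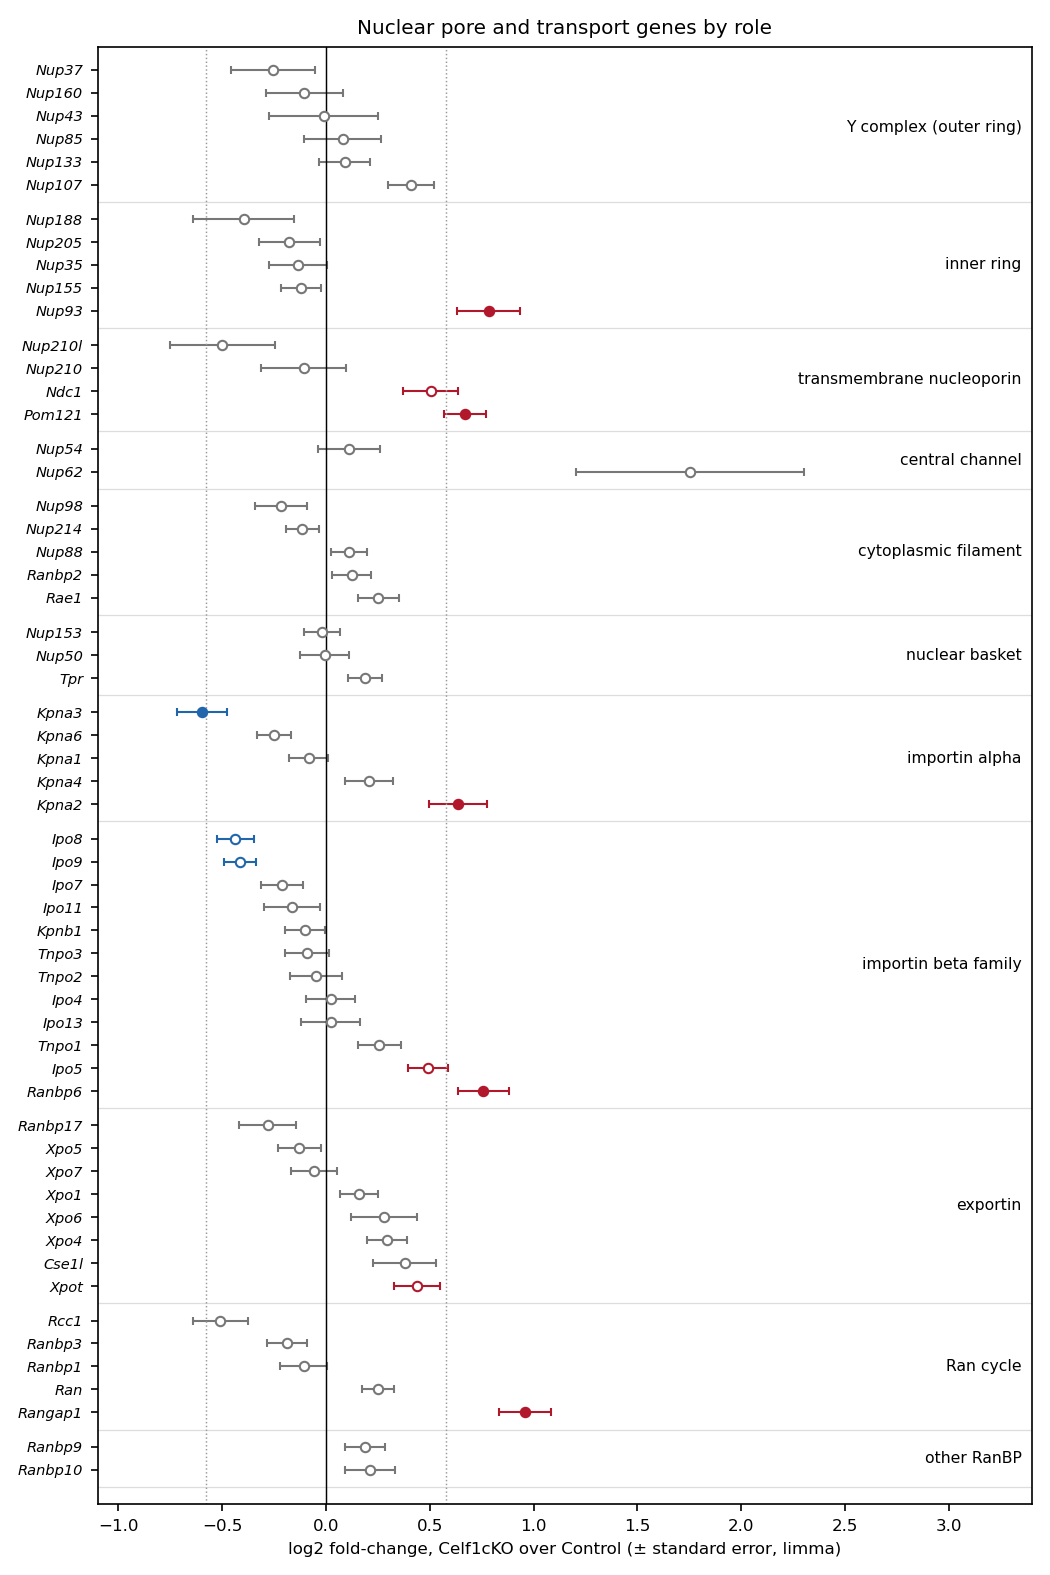
Log2 fold-change of each of the 57 genes (x axis, Celf1cKO over Control, points with standard errors from limma, 3 libraries per group), sorted within role. Filled points pass all 3 thresholds, coloured open points pass the adjusted p alone, grey points do not pass, and dotted lines mark 0.58 in either direction. Rangap1 at 0.96 and Kpna3 at -0.60 are the highest and lowest of the filled points, and the single value near 1.75 is Nup62, which rests on few reads.

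Leaving out 1 library at a time changed the number of calls. Without Control library 2, or without Celf1cKO library 3, limma passed 0 of the 57 genes, and in each of these fits only 1 gene of the whole table passed. At an unadjusted p under 0.05, 12 were elevated (21.1%, where 14.6% of all genes were) and 4 reduced (7.02%, where 9.94% were) without the former. Without the latter, 10 were elevated (17.5%, where 11.9% of all genes were) and 4 reduced (7.02%, where 9.25% were). Without Control library 1, and without Celf1cKO library 2, 3 were called elevated (5.26%) and 0 reduced. Of all genes, 2.96% and 2.15% were called elevated in these fits, and 1.26% and 0.94% reduced. Without Control library 3 there were 4 elevated (7.02%, where 2.26% of all genes passed) and 1 reduced (1.75%, where 0.811% did). Without Celf1cKO library 1 more genes passed, 6 elevated and 1 reduced by all thresholds (12.3% together, where 13.5% of all genes passed in that fit), and 11 and 3 by adjusted p (24.6%, where 21.8% of all genes passed). Rangap1, Pom121 and Ranbp6 kept an adjusted p under 0.05 in 4 of the 6 fits that left out 1 library. The direction of the 11 genes that passed did not change in any of the 6. This was fixed in advance, because the groups of all 11 do not overlap.

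Scaling of the libraries also bears on these counts. Crystallin genes took 45.8% to 46.9% of reads in Control libraries and 34.7% to 38.5% in Celf1cKO libraries. When libraries were scaled by their total counted reads instead, the median log2 fold-change of genes with a mean level above 1 log2 CPM became 0.23, so changes under that scaling are relative to it. The split by adjusted p was then 21 elevated (36.8%, where 20.9% of all genes passed under that scaling) and 1 reduced (1.75%, where 2.36% did), where it was 8 and 3 with the deposited scaling, and 6 and 5 when libraries were rescaled without the crystallin genes. The 8 elevated genes and Kpna3 still passed by adjusted p under total-read scaling, and Ipo8 and Ipo9 did not. Kpna3, at -0.37, no longer reached the fold-change threshold, so that 0 genes were reduced under all thresholds.

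**Figure D2:**
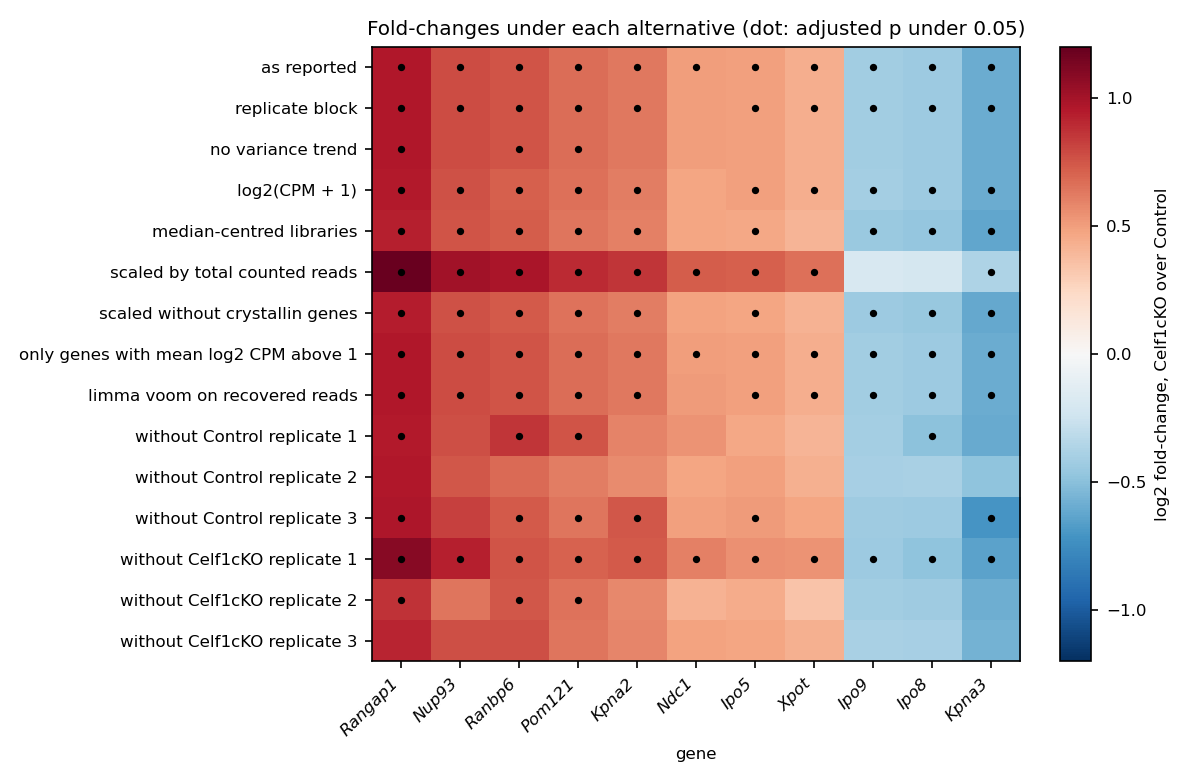
Log2 fold-change (colour, Celf1cKO over Control) of the 11 genes with an adjusted p under 0.05 (x axis) under each processing alternative and with each library left out (y axis), with a dot where the adjusted p was under 0.05. Signs do not change in any row, which was fixed in advance for the rows with a library left out, because the groups do not overlap. The rows without Control replicate 2 and without Celf1cKO replicate 3 hold no dot.

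The largest value among the genes called was that of Rangap1, which stimulates GTP hydrolysis by Ran and so ends the import and export cycles at the cytoplasmic face. Rangap1 (chromosome 15, positions 81704248 to 81745530, minus strand) had levels of 6.20, 6.22 and 6.23 log2 CPM in the Control libraries, in order of replicate number here and throughout, and of 6.90, 7.36 and 7.27 in the Celf1cKO libraries. The Control libraries were within a narrow range and every Celf1cKO library lay above them. The log2 fold-change was 0.96 ± 0.12 (95% interval 0.67 to 1.25), a 1.94-fold higher level, with an adjusted p of 0.0101 by limma, the smallest among the 57 genes.

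Rcc1, the exchange factor that loads Ran with GTP on chromatin, went the other way without passing the test. It was at 3.10, 3.19 and 3.23 log2 CPM in Control and at 2.65, 2.7 and 2.64 in Celf1cKO libraries. The groups did not overlap, and the log2 fold-change was -0.51 ± 0.13 with an adjusted p of 0.0505 by limma, at the edge of the threshold. It passed with an adjusted p of 0.0367 when genes with a mean of 1 log2 CPM or less were left out before the fit, and of 0.0470 with limma voom on the recovered reads, and also when libraries were centred on their medians (0.0436) or rescaled without crystallin genes (0.0440). It did not pass with the replicate block (adjusted p = 0.0597), without a variance trend (0.0509), with another pseudocount (0.0581) or with any 1 library left out (0.0530 to 0.191). Under total-read scaling the log2 fold-change was -0.28 (adjusted p = 0.181 by limma). Per kb of exon, Rangap1 stood at 6.56 ± 0.23 times the level of Rcc1 in Control lenses (SD, n = 3) and at 18.3 ± 2.75 times in Celf1cKO lenses, a ratio that was formed after their values were seen. Neither gene had overlapping groups and they went in opposite directions, so separation of the ratio was fixed in advance. No p-value is given for it, since a test could not add to the values of the genes.

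Ran itself was at 7.82, 7.82 and 7.87 log2 CPM in Control and at 8.02, 8.16 and 8.08 in Celf1cKO libraries. All Celf1cKO libraries lay above all Control libraries, yet the log2 fold-change of 0.25 ± 0.08 did not pass (adjusted p = 0.0743 by limma). The other genes of the cycle, Ranbp1 and Ranbp3, which help to release or assemble complexes that contain Ran-GTP, had log2 fold-changes of -0.11 and -0.19 and did not pass. Ranbp1 shares 16.9% of its exon length with Gm49776 on the same strand, so its reads are less certain. Of the 5 Ran cycle genes only Rangap1 passed in either direction (20% elevated, background 7.85%, and 0% reduced, background 4.03%).

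In the importin alpha family, whose proteins recognise the classical nuclear localisation signal and bridge it to importin beta, 2 members changed in opposite directions. By adjusted p, 1 of 5 was elevated (20%, background 7.85%) and 1 reduced (20%, background 4.03%). Kpna3 (importin alpha 4; chromosome 14, positions 61365211 to 61439874) was at 7.08, 7.32 and 6.88 log2 CPM in Control and at 6.58, 6.47 and 6.44 in Celf1cKO libraries. Its log2 fold-change was -0.60 ± 0.12 (95% interval -0.88 to -0.31; adjusted p = 0.0248 by limma), just beyond the fold-change threshold of 0.58. Under total-read scaling the value was -0.37 (adjusted p = 0.0336 by limma), short of that threshold. Kpna2 (importin alpha 1; chromosome 11, positions 106988629 to 106999541) was at 4.33, 4.28 and 4.62 in Control and at 4.84, 5.15 and 5.14 in Celf1cKO libraries. Every Celf1cKO library lay above the Controls, and the log2 fold-change was 0.63 ± 0.14 (95% interval 0.31 to 0.96; adjusted p = 0.0310 by limma).

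The other importin alpha genes did not pass. Kpna4, the closest relative of Kpna3 with 75.9% identity over 1528 aligned transcript bases, had a log2 fold-change of 0.21 ± 0.11, and its groups overlapped. Kpna1 was at -0.08 ± 0.09 and Kpna6 at -0.25 ± 0.08 (adjusted p = 0.0877 by limma).

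Per kb of merged exon, Kpna3 was the leading importin alpha transcript in all 6 libraries, and its lead was narrower in Celf1cKO lenses. It took 44.6%, 46.7% and 40.9% of the importin alpha reads per kb in the Control libraries and 35.6%, 30.4% and 31.0% in the Celf1cKO libraries. Kpna2 took 9.88%, 8.44% and 12.8% in Control and 15.9%, 18.2% and 18.8% in Celf1cKO lenses. The groups did not overlap for either share. The exact permutation test (two-sided, 3 libraries against 3) gave p = 0.1 for each, the smallest it can give. After adjustment over 25 shares compared in this way it was 0.139, and most of the 25 reached this value. Both genes had separated groups in opposite directions, so the test adds little to their own values. Kpna4 took 15.2% ± 0.56 in Control and 19.5% ± 1.64 in Celf1cKO lenses (SD, n = 3; exact p = 0.1, adjusted 0.139). The family total was 72.4 ± 6.62 CPM per kb in Control and 65.1 ± 2.56 in Celf1cKO lenses (SD, n = 3; exact permutation p = 0.2, adjusted over 3 families 0.2).

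**Figure D3:**
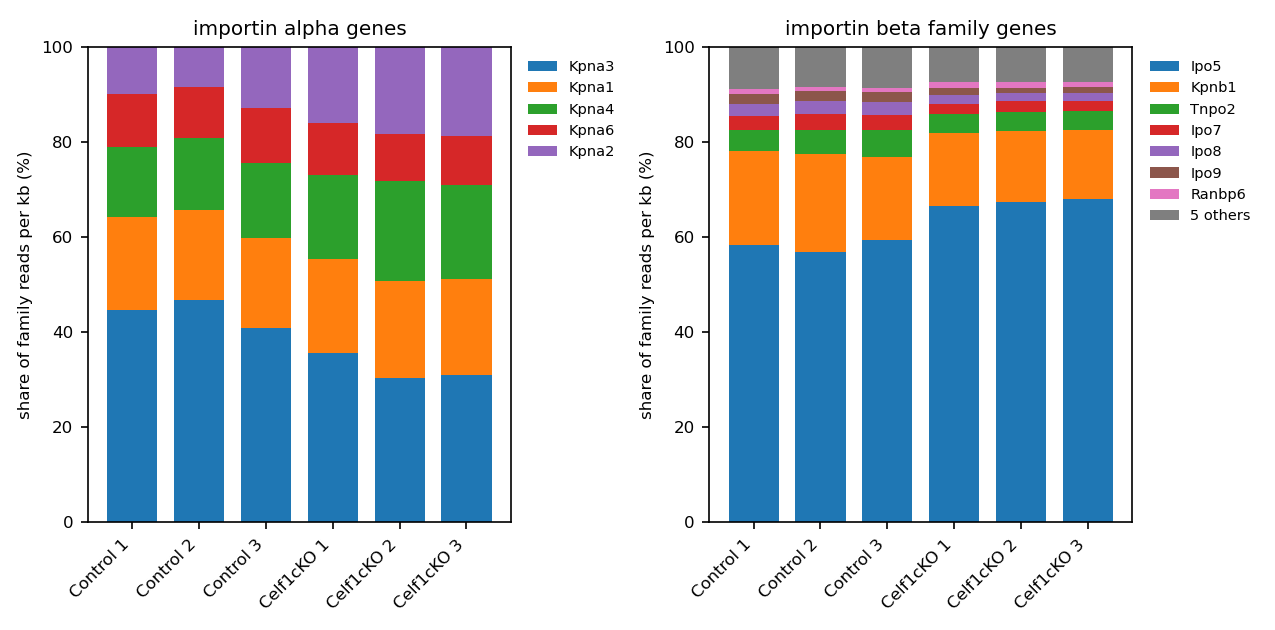
Share of each gene in the summed reads per kb of its family (y axis, percent, stacked bars from 0 to 100), for importin alpha on the left and the importin beta family on the right, in each of the 6 libraries (x axis). The Kpna3 block spans 40.9% to 46.7% in Control and 30.4% to 35.6% in Celf1cKO libraries, and the Ipo5 block is the largest of its family in every library.

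The 12 genes of the importin beta family encode proteins that carry cargo directly or through importin alpha. By adjusted p, 2 were elevated (16.7%, background 7.85%) and 2 reduced (16.7%, background 4.03%). Ipo5, which imports ribosomal proteins and histones, was the most abundant of all 57 transcripts per kb, at 215 ± 6.85 CPM per kb of merged exon in Control and 302 ± 20.3 in Celf1cKO lenses (SD, n = 3). In log2 CPM it was at 10.29, 10.33 and 10.38 in Control and at 10.71, 10.90 and 10.85 in Celf1cKO libraries. The groups did not overlap, and the log2 fold-change of 0.49 ± 0.10 passed on adjusted p (0.0219 by limma) but not on fold-change.

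Ranbp6 is the close relative of Ipo5, with 77.0% identity over 3332 aligned transcript bases, and is encoded in 1 exon (chromosome 19, positions 29808400 to 29812974). It was at 4.10, 3.75 and 3.85 log2 CPM in Control and at 4.66, 4.68 and 4.62 in Celf1cKO libraries. The 3 Celf1cKO libraries were nearly equal and all lay above Control, and the log2 fold-change was 0.76 ± 0.12 (95% interval 0.47 to 1.04; adjusted p = 0.0147 by limma). Only uniquely mapped reads were counted, which limits but does not remove sharing of reads between such relatives. Ranbp6 stood far below Ipo5 per kb, at 3.27 ± 0.42 in Control and 5.50 ± 0.12 in Celf1cKO lenses.

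The reduced members were Ipo8 and Ipo9. Ipo8, an importin that also binds Argonaute proteins, was at 7.20, 7.41 and 7.32 log2 CPM in Control and at 6.97, 6.85 and 6.79 in Celf1cKO libraries, a log2 fold-change of -0.44 ± 0.09 (adjusted p = 0.0259 by limma). Ipo9, which imports core histones, was at 5.98, 6.01 and 5.95 in Control and at 5.61, 5.57 and 5.52 in Celf1cKO libraries, a log2 fold-change of -0.41 ± 0.08 (adjusted p = 0.0198 by limma). For both, all Celf1cKO libraries lay below all Control libraries, and neither reached the fold-change threshold. Under total-read scaling the log2 fold-changes were -0.21 and -0.19 and no longer passed.

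Kpnb1, importin beta itself and the partner of the importin alpha proteins, was the second most abundant of the family. It was at 8.87, 9.01 and 8.75 log2 CPM in Control and at 8.72, 8.86 and 8.75 in Celf1cKO libraries. The groups overlapped, and the log2 fold-change of -0.10 ± 0.10 has a 95% interval from -0.32 to 0.12. Its value became 0.13 under total-read scaling. The importin beta family as a whole summed to 369.8 ± 11.2 CPM per kb in Control and 448 ± 27.2 in Celf1cKO lenses (SD, n = 3; exact permutation p = 0.1, adjusted over 3 families 0.2). Ipo5 took 58.1% ± 1.29 of that sum in Control and 67.3% ± 0.72 in Celf1cKO lenses, and Kpnb1 took 19.4% ± 1.65 and 14.9% ± 0.38 (SD, n = 3; exact p = 0.1 for each, adjusted 0.139). Shares of the same sum depend on each other, so the lower share of Kpnb1 is not read as a change of Kpnb1. The remaining genes of the family (Ipo4, Ipo7, Ipo11, Ipo13, Tnpo1, Tnpo2 and Tnpo3) had log2 fold-changes between -0.21 and 0.26 and did not pass. Of these, Ipo4 shares 55.3% of its exon length with Gm49378 on the same strand, so its count is uncertain.

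Of the 8 exportin genes 1 was elevated by adjusted p (12.5%, background 7.85%) and 0 were reduced (background 4.03%). Xpot, the receptor that exports tRNA, was at 6.52, 6.56 and 6.65 log2 CPM in Control and at 6.82, 7.20 and 7.03 in Celf1cKO libraries. The groups did not overlap, and the log2 fold-change of 0.44 ± 0.11 passed on adjusted p (0.0453 by limma) but not on fold-change. Cse1l, which returns importin alpha to the cytoplasm, was at 5.89, 6.00 and 6.30 in Control and at 6.19, 6.66 and 6.48 in Celf1cKO libraries. Its groups overlapped, and the log2 fold-change of 0.38 ± 0.15 did not pass (adjusted p = 0.147 by limma).

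Xpo1, the receptor for leucine-rich export signals, was at 5.89, 5.77 and 5.99 log2 CPM in Control and at 6.01, 6.11 and 6.01 in Celf1cKO libraries. The log2 fold-change of 0.16 ± 0.09 did not pass (adjusted p = 0.285 by limma). The others were Ranbp17, a relative of Xpo7, at -0.28, Xpo5 at -0.13, Xpo7 at -0.06, Xpo6 at 0.28 and Xpo4 at 0.29, and the smallest adjusted p among them was 0.0884 by limma, for Xpo4. Exportin transcripts summed to 56.4 ± 3.55 CPM per kb in Control and 67.4 ± 7 in Celf1cKO lenses (SD, n = 3; exact permutation p = 0.2, adjusted over 3 families 0.2). Ranbp9 and Ranbp10, scaffold proteins that are not transport receptors, were at 0.19 and 0.21 and did not pass.

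Among the nucleoporins, 3 of 25 were elevated by adjusted p (12%, background 7.85%) and 0 were reduced (background 4.03%). At an unadjusted p under 0.05, 6 were elevated (background 16.3%), Nup62 with its few reads among them, and 0 were reduced (background 13.7%). Nup93, a scaffold that organises the inner ring, was at 4.78, 4.73 and 4.87 log2 CPM in Control and at 5.27, 5.86 and 5.59 in Celf1cKO libraries. Every Celf1cKO library lay above Control, but they were spread more widely than the Controls (SD 0.29 against 0.07). The log2 fold-change was 0.78 ± 0.15 (95% interval 0.43 to 1.14; adjusted p = 0.0216 by limma). The other inner ring genes, Nup35, Nup155, Nup188 and Nup205, had log2 fold-changes between -0.40 and -0.12, did not pass, and each had overlapping groups. Nup93 (chromosome 8, positions 94214564 to 94317227) was thus the only inner ring gene with a positive value, and the difference between it and its ring partners was not tested.

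The transmembrane nucleoporins anchor the pore in the envelope. Pom121 (chromosome 5, positions 135376141 to 135394546) was at 5.67, 5.39 and 5.45 log2 CPM in Control and at 6.10, 6.19 and 6.22 in Celf1cKO libraries. The groups did not overlap, and the log2 fold-change was 0.67 ± 0.10 (95% interval 0.43 to 0.91; adjusted p = 0.0133 by limma). Its exons overlap other genes over 11.9% of their length when strand is disregarded and over 0% on the same strand, and the strand setting of the counting is not given in the sources used here. Ndc1, which takes part in inserting new pores, was at 3.79, 3.67 and 3.70 in Control and at 4.02, 4.39 and 4.26 in Celf1cKO libraries. Its log2 fold-change of 0.50 ± 0.13 passed narrowly (adjusted p = 0.0498 by limma), and it did not pass once the replicate number was a block (adjusted p = 0.0573).

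Nup210 and Nup210l, large membrane-spanning relatives, were at -0.11 ± 0.20 and -0.50 ± 0.25 on the log2 scale, with overlapping groups. Nup210l was at 2.06, 2.11 and 1.51 log2 CPM in Control and at 1.68, 1.28 and 1.21 in Celf1cKO libraries, and per kb it was among the scarcest of the 57 transcripts.

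The remaining nucleoporins showed no change that passed. None of the 6 Y complex genes, which form the outer rings, passed, and their log2 fold-changes were -0.25 for Nup37, -0.10 for Nup160, -0.01 for Nup43, 0.08 for Nup85, 0.09 for Nup133 and 0.41 for Nup107. Nup107 had groups that did not overlap and an adjusted p of 0.0550 by limma. None of the 5 genes on the cytoplasmic side passed. Nup98, which is found on both faces of the pore, was at 4.83, 5.12 and 5.13 log2 CPM in Control and at 4.96, 4.73 and 4.73 in Celf1cKO libraries. Its log2 fold-change was -0.22 ± 0.12 with a 95% interval from -0.51 to 0.07, and the value became 0.01 under total-read scaling. Ranbp2, the large protein of the cytoplasmic filaments that holds Rangap1 at the pore, was at 0.12 ± 0.10, with overlapping groups (adjusted p = 0.423 by limma). Nup214 was at -0.12, Nup88 at 0.11 and Rae1, which joins mRNA export factors to Nup98, at 0.25.

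None of the 3 nuclear basket genes passed. Tpr, which forms the basket filaments, was at 6.95, 6.96 and 6.80 log2 CPM in Control and at 7.06, 7.17 and 7.06 in Celf1cKO libraries, a log2 fold-change of 0.19 ± 0.08 that did not pass (adjusted p = 0.175 by limma). Nup153, which anchors the basket, was at 6.00, 5.95 and 6.09 in Control and at 6.09, 5.96 and 5.93 in Celf1cKO libraries. Its log2 fold-change of -0.02 ± 0.09 has a 95% interval from -0.22 to 0.18 and became 0.21 under total-read scaling. Nup50 was at -0.01 ± 0.12.

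Nup62, whose product lines the central channel, was barely counted. It had 1, 7 and 2 reads in the Control libraries and 12, 15 and 25 in the Celf1cKO libraries. The Celf1cKO libraries all lay above the Controls, but the adjusted p was 0.0805 by limma, the mean level was below the expression threshold, and no fold is drawn from so few reads. The gene model counted (chromosome 7, positions 44816088 to 44830812) lies in a region where Il4i1 shares 3.4% of its exon length on the same strand. Nup54, the other central channel gene, was at 0.11 ± 0.15 and did not pass.

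**Figure D4:**
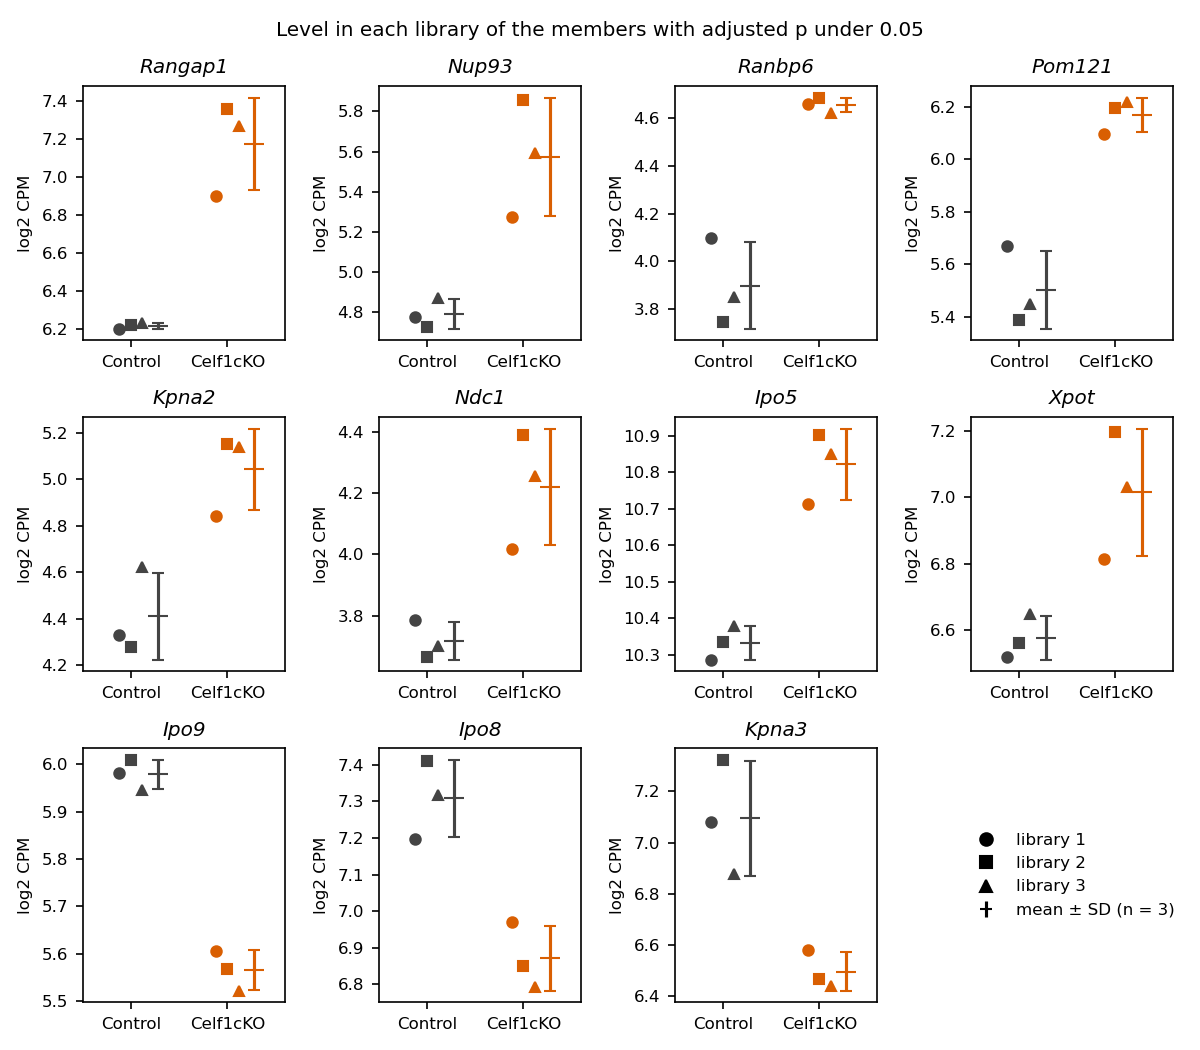
Level of each of the 11 genes with an adjusted p under 0.05 (y axis, log2 CPM, a separate range in each panel that does not start at 0) in each Control and Celf1cKO library (x axis). Points are libraries, with the same symbol for the same replicate number, and bars are mean ± SD (n = 3). In every panel the groups are apart, and in 10 of the 11 Celf1cKO library 1 (circle) is the library of its group nearest to Control.

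The Celf1cKO libraries were not equally far from Control. In 10 of the 11 genes that passed, Celf1cKO library 1 lay nearest to the Control libraries, and Ranbp6 was the exception. The same held for 81.1% of the 1655 genes with an adjusted p under 0.05 in the whole table. Library 1 also kept the most Celf1 of its group, and held the highest summed vessel markers (66.7 CPM against 8.09 and 27.1 in the other Celf1cKO libraries) and mesenchyme markers (63.1 CPM against 18 and 30.03). The part of either in the values of the transport genes was not tested.

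Sequences are shown for the elevated genes because Celf1 is known to bind GU-rich stretches in 3′ untranslated regions. Each gene's longest annotated 3′ untranslated region (GENCODE M21, GRCm38) was searched on the transcript strand for a GU-rich element and for a GU repeat, each of 11 bases. The first is the stretch in capitals in the Ranbp6 site below and the other the stretch in capitals in the remaining sites, and the motifs may overlap where they abut. A match was found in 3 of the 5 genes called elevated, in 4 of the 8 elevated by adjusted p, in 0 of the 3 reduced, and in 9 of all 57 (15.8%). In all, 12.0% of 13111 genes of the table with such a region held one, as did 23.5% of all genes called elevated and 10.9% of those called reduced. The matches in the elevated genes are given below in a window of 30 bases, from 5′ to 3′, with the motif in capitals.
Rangap1 (chr15:81705007-81705036, minus strand): uugguuuggUGUGUGUGUGUggguauguac
Ranbp6 (chr19:29808579-29808608, minus strand): guuuuuuuuUGUUUGUUUGUuuguuuuguu
Nup93 (chr8:94314909-94314938, plus strand, the first of a run): guuuuggggUGUGUGUGUGUgugugugugu
Xpot (chr10:121590108-121590137, minus strand): gaagcaguuUGUGUGUGUGUgggugugugu

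Rangap1, Nup93 and Xpot carry the GU repeat, and Ranbp6 carries the other motif. Pom121, Kpna2, Ipo5 and Ndc1 had neither, nor did Kpna3, Ipo8 and Ipo9. Among the genes that did not pass, 5 of 46 had a match, among them Nup107, Xpo1 and Nup133. The reduced genes had the longer regions (median 2420 bases, against 1214 in the 8 elevated ones). A match is a string of letters and not evidence of binding, and the numbers are small.

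Promoters, taken from RefSeq (GRCm38.p6) as 250 bases before to 50 after a start site, were found for 45 of the 57 genes (52 promoters). Those of Rangap1 and Kpna2 are shown because these genes were elevated and differ in the motifs they hold. Capitals mark, on either strand, the CCAAT box (CCAAT or ATTGG), the GC box (GGGCGG or CCGCCC) and the cell cycle homology region, CHR (TTTGAA or TTCAAA).
Rangap1 (chr15:81729870-81730169, minus strand): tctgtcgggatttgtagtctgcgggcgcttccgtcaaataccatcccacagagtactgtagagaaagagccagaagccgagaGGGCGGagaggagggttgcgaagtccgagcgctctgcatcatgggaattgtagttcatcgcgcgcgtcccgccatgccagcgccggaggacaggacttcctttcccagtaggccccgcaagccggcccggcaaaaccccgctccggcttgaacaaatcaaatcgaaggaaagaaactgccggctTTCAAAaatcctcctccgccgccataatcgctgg
Kpna2 (chr11:106999476-106999775, minus strand): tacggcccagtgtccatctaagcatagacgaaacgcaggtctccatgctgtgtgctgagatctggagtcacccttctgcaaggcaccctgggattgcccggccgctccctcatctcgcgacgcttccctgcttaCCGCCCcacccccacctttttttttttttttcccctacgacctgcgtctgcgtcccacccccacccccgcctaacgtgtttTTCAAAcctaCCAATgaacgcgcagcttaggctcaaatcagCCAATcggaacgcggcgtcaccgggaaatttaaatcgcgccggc

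The Kpna2 promoter holds all 3 motifs, with the CHR just upstream of a CCAAT box, and that of Rangap1 holds a GC box and a CHR. Over the 52 promoters the CCAAT box was found in 44.2%, the GC box in 69.2% and the CHR in 25% (37.4%, 35.7% and 17.9% of all 32851 promoters; 37.8%, 64.7% and 11.7% of the 10904 promoters of genes with a mean level above 1 log2 CPM). The palindromic NRF1 core was in 9.62% of them, the E-box CACGTG in 17.3%, the ETS core CCGGAAG in 17.3% and the CRE TGACGTCA in 5.77%, beside 2.17%, 10.3%, 18.3% and 3.12% of promoters of genes above that level, all counted on both strands. The E-box and the GC box can share letters where they abut. These shares are descriptions and were not tested.

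Genes that work beside the pore and were not selected by symbol were read from lists. Of 20 other pore and transport genes, 4 were elevated by adjusted p and 0 reduced, where 7.85% and 4.03% of all genes were. At an unadjusted p under 0.05 there were 9 and 0, where 16.3% and 13.7% of all genes passed. The median log2 fold-change of the list was 0.23. Ddx19b, a helicase that releases mRNA at the cytoplasmic face, stood at 0.99 ± 0.11 on the log2 scale (adjusted p = 0.00888 by limma), and Aaas, a nucleoporin that binds Ndc1, at 0.68 ± 0.17 (adjusted p = 0.0471 by limma). Sec13 at 0.51 and Cetn2 at 0.38 passed on adjusted p alone. Nupl2, a nucleoporin of the cytoplasmic side, was taken neither by the symbol rule nor into this list of 20. It was at -0.44 ± 0.15 and did not pass (adjusted p = 0.0993 by limma). With an unadjusted p of 0.0206 by limma it would have counted as reduced at that threshold, and its groups did not overlap.

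Of 12 genes of the mRNA export adaptors (TREX), Chtop at 0.60 ± 0.08 (adjusted p = 0.0101 by limma) and Poldip3 at 0.47 ± 0.10 (adjusted p = 0.0288 by limma) were elevated, and 0 were reduced. By adjusted p, 7.85% of all genes were elevated and 4.03% reduced, and at an unadjusted p under 0.05, 16.3% and 13.7%. These backgrounds apply to the lists below as well. None of 8 SUMO pathway genes passed (0 elevated and 1 reduced at an unadjusted p under 0.05). SUMO attached to Rangap1 tethers it to Ranbp2. Of 16 genes of the nuclear envelope and of the LINC complex that joins it to the cytoskeleton, only Lmna, which encodes lamins A and C, passed, at 0.96 ± 0.14 on the log2 scale (adjusted p = 0.0120 by limma). The median of that list was -0.23, against 0.23 for the other pore and transport genes and 0.22 for the mRNA export adaptors.

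Markers of dividing cells and of other cell types were measured beside these genes. Of 12 markers of proliferating cells, among them Mki67 and Top2a, 0 passed and all had log2 fold-changes below 0 (median -0.65, and 4 at an unadjusted p under 0.05, where 13.7% of all genes were reduced). Their sum was 183 to 296 CPM in Control and 104 to 194 CPM in Celf1cKO libraries. Celf1cKO library 1 had the highest of these sums within its group, and Control library 3 within its own.

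Vessel markers summed to 48.9 to 68.5 CPM in Control and 8.09 to 66.7 CPM in Celf1cKO lenses (0 of 5 passed, 0 at an unadjusted p under 0.05), and mesenchyme markers to 79.3 to 109.8 and 18 to 63.1 CPM (1 of 4, Pdgfra, reduced). Retina markers summed to 7.88 to 22.9 and 2.33 to 11.4 CPM (1 of 5, Elavl4, reduced), and pigment cell markers to 30.4 to 45.8 and 21.3 to 42.5 CPM (1 of 6, Mitf, reduced). Mitf went against most of its list, in which 4 markers had log2 fold-changes above 0 and 2 below (median 0.54), with 0 elevated by adjusted p. Of all genes, 4.03% were reduced by adjusted p. Fiber markers summed to 296705 to 337097 CPM in Control and 236544 to 250947 CPM in Celf1cKO lenses (2 of 9, Bfsp1 and Gja3, reduced), and epithelium markers to 1312 to 1520.2 and 1239.7 to 1534 CPM (1 of 8, Foxe3, reduced). Of the epithelium markers, 7 of 8 had log2 fold-changes below 0 (median -0.78), and 4 of them had an unadjusted p under 0.05, where 13.7% of all genes were reduced. Their values were -2.01 for Foxe3, -1.34 for Cdh1, -1.32 for Slc38a3 and -1.13 for Npnt. Cdkn1c, at 0.28 (adjusted p = 0.153 by limma), made up 50.6% to 55.4% of the sum of this list in Control and 58.6% to 79.9% in Celf1cKO libraries. The other 7 summed to 648 to 677 CPM in Control and 249 to 635 CPM in Celf1cKO libraries. The full sum thus mostly follows 1 gene and is not read as a measure of the epithelium. None of the listed markers in the table was at 0 in all libraries. The part of any of these lists in the values of the transport genes was not tested.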

How the data were processed

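Per the study's methods and the labels, strand-specific paired-end reads were trimmed, aligned to GRCm38.p6 with STAR (2.7.8a), kept where uniquely mapped and counted per gene with featureCounts (2.0.0), and genes above 0.2 CPM were kept. The gene annotation and the strand setting are not given in the sources used here. The authors deposited a log2 CPM value per gene and library, with a prior count of 2 that was worked out from the values. The log2 fold-changes, average levels, F statistics (a score), p-values and FDR that the authors deposited beside them were not used. Read numbers were recovered from the log2 CPM values, 100% of which gave whole reads (within 0.1 read).

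Groups and replicate numbers came from the labels. The methods call the libraries biological replicates without tying lenses to animals, so p-values measure the spread between these libraries. Values were compared with limma (3.58.1, R 4.3.3) over all 13931 genes, two-sided, with a variance trend and Benjamini-Hochberg adjustment over all genes, under the study's thresholds. Same-numbered libraries of both groups deviated together (correlations of 0.26, 0.39 and 0.38). The labels state no pairing and libraries with different numbers were not compared in this way, so a pairing was not established. A fit with the number as a block was therefore run beside the unblocked one, which gave the calls reported. Levels between genes were compared as CPM per kb of merged GENCODE M21 exon, in which 13928 identifiers were found. Shares and sums were compared with exact permutation tests (scipy 1.17.1, Python 3.11.15), which cannot go below p = 0.1 with 3 against 3. Identity came from blastn 2.17.0 and figures from matplotlib 3.10.9. The procedure was tested on simulated data with known changes. Log2 changes of 1 were recovered in 100%, 54% and 0% at dispersions (spread between libraries) of 0.01, 0.05 and 0.2. Log2 changes of 2 were recovered in 100%, 100% and 44%. False calls made up 0%, 6.1% and 6.38% of the calls. Smaller changes were not simulated, so a gene that did not pass may still differ. Counting error has no interval here, since the spread between libraries was the error used, and 3 reads correspond to 0.0609 to 0.0807 CPM.

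The genes and lists were chosen with earlier results of these data known. Genes were described in full if their adjusted p was under 0.05, if they were among the 5 highest or 5 lowest log2 fold-changes above 1 log2 CPM, or if they belonged to 12 fixed for their roles, which made 21. Values of other genes complete a role, and Nup107, Xpo4, Kpna4, Kpna6, Sec13, Cetn2, Poldip3 and Nupl2 were picked out after their values were seen. Alternatives were the block, no variance trend, another pseudocount, other scalings, other thresholds and filters, and each library left out in turn.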

Additional observations from a re-analysis of the deposited data

How the results depend on the processing

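Counts are given as elevated and reduced. With the replicate block, 5 and 1 passed all thresholds (8.77% and 1.75%, where 5.35% and 3.66% of all genes did). By adjusted p, 7 and 3 passed (12.3% and 5.26%, where 9.41% and 5.83% of all genes did). The median log2 fold-change was -0.01. The block changed 1 call among the named genes, that of Ndc1, whose log2 fold-change of 0.50 was the same. Without a variance trend, 3 and 0 passed all thresholds (5.26% and 0%, where 2.15% and 0.811% of all genes did). The adjusted p alone also gave 3 and 0 (5.26% and 0%, where 2.64% and 1.21% of all genes passed). Celf1 (-1.60) missed the threshold in that fit (adjusted p = 0.0693 by limma). Scaling by total counted reads gave 10 and 0 (17.5% and 0%, where 11.8% and 1.41% of all genes passed). By adjusted p this scaling gave 21 and 1 (36.8% and 1.75%, where 20.9% and 2.36% of all genes passed), with a median of 0.22 over the 57 genes. It turned the sign of Nup98 (to 0.00937), Kpnb1 (to 0.13) and Nup153 (to 0.21). Rescaling without crystallin genes gave 5 reduced genes by adjusted p (8.77%, where 4.4% of all genes were reduced). Without the fold-change threshold the calls were 8 and 3 of the 56 genes above 1 log2 CPM (14.3% and 5.36%, where 9.83% and 4.7% of all genes above that level passed). With 1 library left out, genes called numbered 0 to 6 elevated and 0 to 1 reduced, and 0 to 11 and 0 to 3 by adjusted p. Over all genes in these fits, 0.00718% to 7.35% were called elevated and 0% to 6.14% reduced. By adjusted p these shares were 0.00718% to 11.9% and 0% to 9.86%. The extremes were 0 without Control 2 or Celf1cKO 3, and 6 and 11 without Celf1cKO 1. The median ranged from -0.06 to 0.04, and Celf1 from -1.99 to -1.36, passing only without Celf1cKO 1 (adjusted p from 0.00250 to 0.108 by limma). Nup153 ranged from -0.0702 to 0.0172, above 0 without Control 3 or Celf1cKO 3. The cause of these differences was not tested, and each of the fits with 1 library left out also had fewer libraries. Over 21 named genes and all alternatives, 218 values kept their direction and side of the threshold, 59 lost and 11 gained significance and 5 reversed. The planned count models were not run because the deposited values are log2 CPM, and limma voom on recovered reads was chosen after seeing the data. It gave 5 and 1 (8.77% and 1.75%, where 4.6% and 2.81% of all genes passed). By adjusted p it gave 7 and 4 (12.3% and 7.02%, where 7.53% and 4.27% of all genes passed). At this depth Nup62, with 25 reads or fewer in each library, could not be described.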
